A study of Mus musculus with 12 samples.

Results

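T cell barcodes with an alpha chain (TRA) and no beta chain (TRB) are described here. A barcode marks the RNA of 1 droplet, and a barcode was a member if the deposited receptor chains held at least 1 TRA and no TRB for it. The members were thus chosen by measured values, the presence of TRA and absence of TRB contigs. This rule selected 451 of 23219 barcodes, against 20959 barcodes with both chains (paired barcodes) and 1809 with a TRB alone. The barcodes came from 6 T cell receptor (TCR) libraries of CD45-positive leukocytes sorted from tumours, 3 from tumours given LNP-P20-mAb and 3 from tumours given LNP-Ctrl. All mice were C57BL/6J, 6 to 8 weeks old, and carried subcutaneous MC38 colon carcinoma cells, in a line that the labels call p53KO and to which they also assign a p53 substitution, noted differently in different fields. Tumours of about 50 to 100 mm³ were injected once on day 10 with 40 µg of either particle, and about 10000 sorted cells per sample were loaded for droplet-based 5′ libraries.

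A T cell receptor of the conventional kind needs an alpha and a beta protein to reach the cell surface. Developing T cells rearrange the beta gene first and the alpha gene later, and the alpha gene can rearrange again and on both chromosome copies, so that a cell may transcribe more than 1 productive alpha chain. In single-cell libraries each chain is recovered from its own transcripts, and a barcode can therefore lack a chain that its cell expressed. The centre of each chain, the CDR3 loop, is encoded where V and J segments join and varies between T cell clones. A shared alpha sequence can thus place a barcode beside paired barcodes of the same library, but does not prove a shared clone.

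Shown first are the alpha chains on 5 or more alpha-only barcodes of a library, because the counts by chain turn on them, with some chains that resemble one of these or each other and the chain on most barcodes among those never found paired. Each chain is named by its V and J segments and its library, and each line gives its CDR3 bases on the coding strand, 5′ to 3′. Capitals mark the bases between the stretch that most chains with that V segment share at the start and the stretch that most chains with that J segment share at the end.
TRAV9-1/TRAJ6, LNP-Ctrl 2: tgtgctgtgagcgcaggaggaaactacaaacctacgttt
TRAV9-2/TRAJ24, LNP-Ctrl 1: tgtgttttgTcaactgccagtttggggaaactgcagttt
TRAV12N-2/TRAJ4, LNP-P20-mAb 1 and 2: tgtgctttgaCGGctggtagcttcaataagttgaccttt
TRAV7N-6/TRAJ17 isoleucine form, LNP-Ctrl 1: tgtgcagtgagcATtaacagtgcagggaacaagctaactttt
TRAV7D-4/TRAJ31, LNP-Ctrl 1: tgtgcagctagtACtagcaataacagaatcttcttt
TRAV7N-6/TRAJ17 alanine form, LNP-P20-mAb 3: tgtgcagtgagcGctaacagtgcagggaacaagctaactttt
TRAV7N-6/TRAJ17 threonine form, LNP-Ctrl 1: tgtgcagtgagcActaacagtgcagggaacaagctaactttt
TRAV7N-4/TRAJ44, LNP-P20-mAb 3: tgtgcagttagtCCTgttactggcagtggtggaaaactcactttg
TRAV7-4/TRAJ33, LNP-P20-mAb 1: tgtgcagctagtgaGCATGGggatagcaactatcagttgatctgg
TRAV7-4/TRAJ33, LNP-Ctrl 1: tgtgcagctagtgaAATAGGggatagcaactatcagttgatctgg
TRAV6D-6/TRAJ49, LNP-Ctrl 3: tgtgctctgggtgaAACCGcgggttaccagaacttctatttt
TRAV6D-6/TRAJ49, LNP-P20-mAb 1: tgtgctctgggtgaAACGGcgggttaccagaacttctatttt
TRAV14-3/TRAJ49, LNP-P20-mAb 3, with no paired match: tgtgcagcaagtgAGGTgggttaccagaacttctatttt
In the first of these every base fell within the shared V and J stretches, and the 3 chains of TRAV7N-6/TRAJ17 differ within 1 codon at the marked bases, after whose residue they are named.

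LNP-P20-mAb 1 and 2 largely held the same clones, so values of these libraries are not independent. Of the 66 alpha-only barcodes of LNP-P20-mAb 1, 47 carried a TRA found in paired barcodes of LNP-P20-mAb 2, and 24 of the 38 of LNP-P20-mAb 2 carried one found in those of LNP-P20-mAb 1. In any other pairing of different libraries this held for at most 9 barcodes. Pairs of libraries had 11 to 29 barcode sequences in common. Of the alpha-only barcodes, 13 recurred in another library, and 0 of these had the same TRA there. The alpha-only barcodes of a library held 279 to 865 TRA molecules, counted by unique molecular identifiers (UMIs), and the paired barcodes 23546 to 47692. The labels name no batch and do not say from which animals the libraries of a group were made. Each p-value therefore refers to how far libraries differ, a spread that may be technical.

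Alpha-only barcodes were a small class in every library and were not more or less frequent in either treatment beyond the spread between libraries. They made up 1.58%, 1.55% and 2.09% of all TCR barcodes in LNP-P20-mAb 1, 2 and 3 and 2.18%, 2.49% and 1.57% in LNP-Ctrl 1, 2 and 3. The LNP-P20-mAb range lay within that of LNP-Ctrl apart from LNP-P20-mAb 2, which was just below its lowest library. The share averaged 1.74% ± 0.301 across LNP-P20-mAb and 2.08% ± 0.466 across LNP-Ctrl libraries (SD, n = 3 each), a difference of -0.339 percentage points. It was -0.594 points without LNP-Ctrl 3, -0.513 without LNP-P20-mAb 3, -0.137 without LNP-Ctrl 2 and -0.0857 without the 2 chains on over 10 alpha-only barcodes described below. The two-sided exact permutation test over 20 assignments gave p = 0.3, adjusted to 0.4 by Benjamini-Hochberg over 4 comparisons of the treatments, and 3 libraries against 3 cannot give less than 0.1. Over all libraries, barcodes with a TRA alone made up 1.94% of the total and those with a TRB alone 7.79%.

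**Figure D1:**
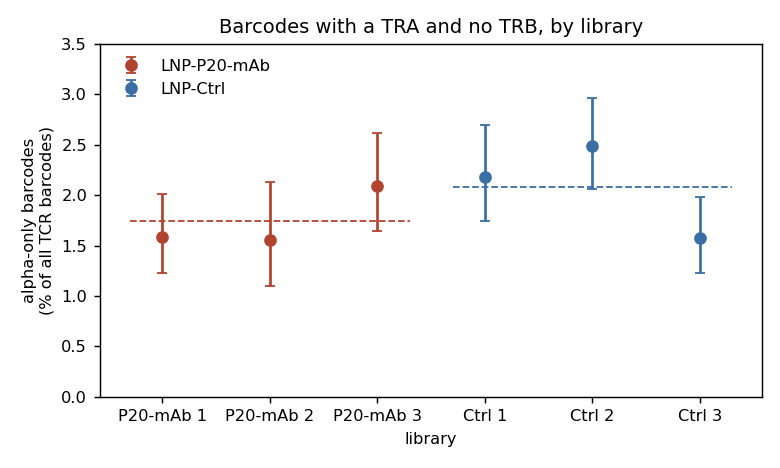
Alpha-only barcodes as a percentage of all TCR barcodes (vertical axis) in each library (horizontal axis), with 95% exact Clopper-Pearson intervals, which cover counting error only, and dashed lines at the mean of each treatment. The libraries sit between 1.55% and 2.49%, and the treatments overlap.

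The TRA molecules of a barcode, summed over its alpha chains, were fewer in alpha-only than in paired barcodes of 6 of 6 libraries, and this is given as a description without a test, because the rule itself depends on how much receptor RNA a barcode yielded. The median number of TRA UMIs per barcode was 5, 6.5 and 7 in alpha-only barcodes of LNP-P20-mAb 1, 2 and 3, against 8, 9 and 9 in paired barcodes of the same libraries. In LNP-Ctrl 1, 2 and 3 it was 8.5, 5 and 5 in alpha-only barcodes, against 10, 6 and 6 in paired ones. The gap was thus 1 to 3 UMIs, but 13.2% of paired barcodes had 2 or more alpha chains to sum and the alpha-only ones had 1. Paired barcodes with 1 TRA had medians of 8, 8 and 8 in LNP-P20-mAb 1, 2 and 3 and 9, 6 and 5 in LNP-Ctrl 1, 2 and 3. The alpha-only median was lower than these in 5 libraries and equal in LNP-Ctrl 3. Those paired barcodes include some with 1 TRA UMI, which no alpha-only barcode had. Held to 2 or more UMIs, their medians were 8, 9 and 8 in LNP-P20-mAb and 9, 6 and 6 in LNP-Ctrl 1, 2 and 3. The alpha-only median was below these in 6 of 6 libraries. Counting only the UMIs of the chain itself, of 128 chains found in both classes, the alpha-only median was lower for 88, equal for 11 and higher for 29, with a median log2 ratio of -0.49. Between treatments the medians of alpha-only barcodes averaged 6.17 ± 1.04 UMIs across LNP-P20-mAb and 6.17 ± 2.02 across LNP-Ctrl libraries (SD, n = 3 each; two-sided exact permutation p = 1).

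The lower end of these counts was bounded in the alpha-only class. No alpha-only barcode had 1 TRA UMI and 44 had 2 (9.76%), whereas 545 paired barcodes had 1 (2.60%) and 1252 had 2 (5.97%). At the upper end, 24 alpha-only barcodes had 20 or more TRA UMIs (5.32%), against 10.1% of paired barcodes, and the highest had 47. Just outside the rule lay 90 paired barcodes with 1 TRB UMI and 215 with 2. Their median TRA counts were 4 and 5 UMIs, against 6 over all alpha-only barcodes, the same as the median of 6 in the paired barcodes with 6 to 10 TRB UMIs. The TRA medians of paired barcodes were higher with more TRB, reaching 10 UMIs in those with over 20 TRB UMIs. The alpha-only median lay above those of the paired barcodes with least TRB. These medians pool the libraries, and only the paired class includes barcodes with 1 TRA UMI, so this order is not a like comparison.

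**Figure D2:**
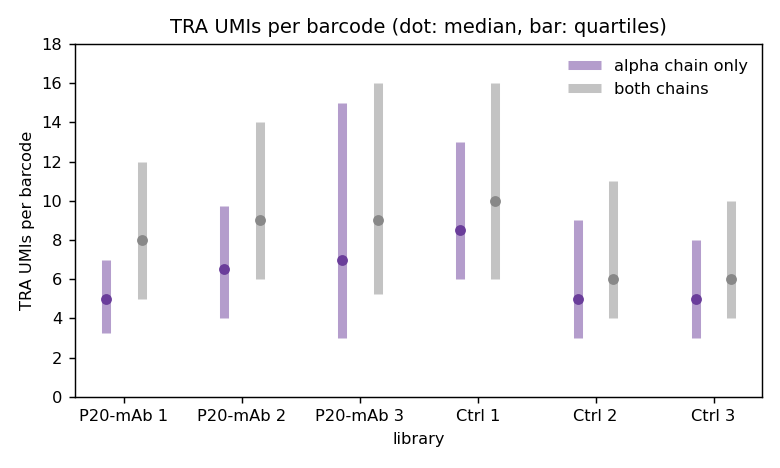
TRA UMIs per barcode (vertical axis) in alpha-only and paired barcodes of each library (horizontal axis). Dots are medians and bars span the quartiles. UMIs are summed over all TRA chains of a barcode, of which alpha-only barcodes have 1 and 13.2% of paired barcodes 2 or more. The alpha-only median is the lower of the pair in each library, by 1 to 3 UMIs, and the bars overlap.

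None of the alpha-only barcodes carried a second alpha chain. With 0 of 451, a share of up to 0.665% is allowed by counting error, against 2759 of 20959 paired barcodes (13.2%) with 2 or more. Among paired barcodes the share was 7.77%, 7.41% and 21.9% in LNP-P20-mAb 1, 2 and 3 and 11.5%, 13.8% and 15.3% in LNP-Ctrl 1, 2 and 3. The difference averaged -13.0 percentage points ± 5.41 (SD, n = 6) and is a description. The sign-flip permutation test chosen for it is void, since the rule itself read the chains of a barcode and a class at 0 in every library fixes the exact p at its smallest value. Barcodes with a TRB alone likewise had 0 of 1809 with 2 or more TRB. The authors' calling of cells and chains, which precedes these files, cannot be told apart from this pattern.

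The alpha-only share was also computed by how often a chain came with a second TRA. Of the chains on 20 or more barcodes of a library, 12 had a second TRA on 50% or more of their paired barcodes. On these 12 chains 8 of 1624 barcodes were alpha-only (0.493%, 95% exact Clopper-Pearson interval 0.213% to 0.968%). On the other 86 chains it was 109 of 6228 (1.75%, interval 1.44% to 2.11%). Barcodes of 1 clone share their source and some clones occur in both LNP-P20-mAb 1 and 2, so this is a description of these chains. A paired barcode with 2 alpha chains can count under both, whereas an alpha-only barcode held 1 alpha chain and counts once. An alpha-only barcode of a clone with 2 alpha chains also lacked 1 of them. The shares are therefore not a like comparison, and no difference is read from them.

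For over 50% of the alpha-only barcodes a paired barcode with the same alpha chain existed. At least 1 paired barcode of the same library held the identical TRA (V, J and CDR3 bases) for 252 of 451 alpha-only barcodes (55.9%). By library the share was 77.3%, 68.4% and 68.5% in LNP-P20-mAb 1, 2 and 3 and 69.0%, 43.0% and 21.7% in LNP-Ctrl 1, 2 and 3. A paired barcode counted as shared if any of its TRA chains occurred in another paired barcode. Such barcodes made up 87.9%, 85.9% and 62.4% of the paired ones in LNP-P20-mAb 1, 2 and 3 and 52.7%, 29.2% and 15.1% in LNP-Ctrl 1, 2 and 3. The alpha-only share was thus lower than the paired share in LNP-P20-mAb 1 and 2 and higher in the other 4 libraries. Over all libraries the difference averaged 2.47 percentage points ± 13.6 (SD, n = 6; two-sided exact sign-flip permutation p = 0.656). It was -0.298 points without LNP-Ctrl 1 and -0.374 points without the 2 chains on over 10 alpha-only barcodes.

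Set against the paired barcodes of their own library, the alpha-only barcodes with a shared TRA gave a difference of -7.32 points ± 12.1 across LNP-P20-mAb and 12.3 points ± 5.00 across LNP-Ctrl libraries (SD, n = 3 each). The treatments did not overlap, since the highest LNP-P20-mAb difference was 6.13 and the lowest LNP-Ctrl difference 6.66, but they nearly touched. This comparison was added after the values were seen, and its two-sided exact permutation p = 0.1 is the smallest possible (0.4 after adjustment). Taken by itself, the share of alpha-only barcodes with a match was 71.4% ± 5.09 over LNP-P20-mAb libraries and 44.6% ± 23.7 over LNP-Ctrl libraries (n = 3 each; exact permutation p = 0.3, adjusted 0.4).

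**Figure D3:**
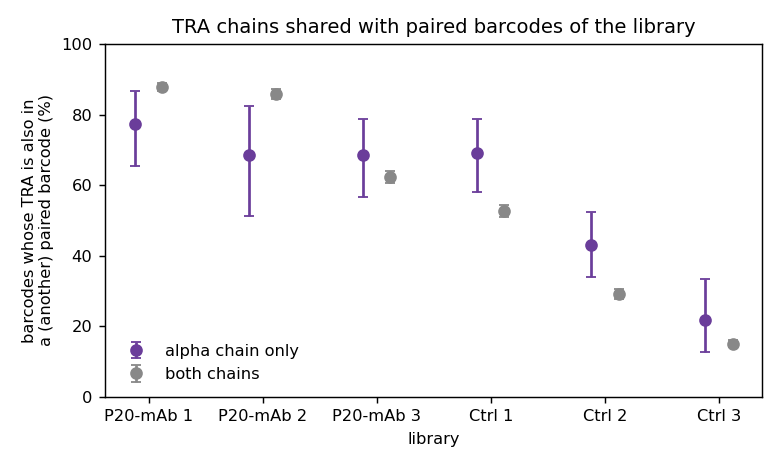
Share of barcodes whose TRA is also found in a paired barcode, or for paired barcodes in another paired barcode, of the same library (vertical axis, percent), by library. Bars are 95% exact Clopper-Pearson intervals. Alpha-only barcodes lie below paired ones in LNP-P20-mAb 1 and 2 and above them in the other 4 libraries.

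The deposited clonotype numbers joined fewer of these barcodes. Of the 252 with a matching chain, 133 (52.8%) had the clonotype number of a paired barcode with that chain and 119 had another number. No alpha-only barcode shared a number with a paired barcode without sharing a chain. By distinct chains, the 451 barcodes carried 323 (a chain counted once per library), of which 128 were also found paired. The remaining 199 barcodes held 192 chains seen once and 3 seen on 2 or 3 barcodes. These 3 were TRAV14-3/TRAJ49 (3 barcodes of LNP-P20-mAb 3, with 6 to 8 TRA UMIs), TRAV6D-6/TRAJ45 (2 barcodes of LNP-P20-mAb 3, with 6 and 9 UMIs) and TRAV4-4-DV10/TRAJ22 (2 barcodes of LNP-Ctrl 3, with 23 and 47 UMIs). The last of these included the barcode with the most TRA UMIs of the whole class. Of the barcodes without a match in their own library, 13 had one in another library.

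A few alpha chains were on alpha-only barcodes far more often than the 2.11% found over all barcodes with a TRA. The chain on most alpha-only barcodes was TRAV9-1/TRAJ6 in LNP-Ctrl 2, whose bases are given above, on 20 alpha-only and 54 paired barcodes (27.0%, interval 17.4% to 38.6%). Each of those 54 barcodes carried the same TRBV13-2 receptor, and the chain had a median of 10.5 TRA UMIs on alpha-only barcodes and 15 on paired ones. TRAV9-2/TRAJ24 in LNP-Ctrl 1 was on 15 alpha-only and 2 paired barcodes (88.2%, interval 63.6% to 98.5%), both with the same TRBV13-1 receptor. It had 4 to 23 TRA UMIs, with a median of 9, on the barcodes without TRB, and the 2 paired barcodes had 13 and 24 TRB UMIs. In LNP-Ctrl 1 its alpha chain stood without a beta chain on most of its barcodes. These 2 chains, the only ones on over 10 alpha-only barcodes, held 35 of the 451.

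In LNP-P20-mAb 3, the alanine form of TRAV7N-6/TRAJ17 was on 6 alpha-only barcodes and 1 paired barcode, and TRAV7N-4/TRAJ44 on 5 and 1. The alanine form had 16 to 46 TRA UMIs on the alpha-only barcodes and a median of 25.5, above the library's alpha-only median of 7. Its paired barcode carried TRBV12-1, and that of TRAV7N-4/TRAJ44 carried TRBV13-1 with 1 TRB UMI. A further chain of this kind, the threonine form of TRAV7N-6/TRAJ17 in LNP-Ctrl 1, was on 3 alpha-only and 2 paired barcodes, and 4 of the matched chains had at least 3 alpha-only barcodes and fewer paired ones. In LNP-Ctrl 3, where 52 of the 69 alpha-only barcodes held a chain seen once, the matched chain on most was TRAV6D-6/TRAJ49, with 4 alpha-only and 14 paired barcodes. The other matched chains there were on 1 alpha-only barcode each, and of these TRAV9-1/TRAJ39, with 1 paired barcode and TRBV2, had the most TRA UMIs (13). The chains with the second most alpha-only barcodes in LNP-P20-mAb 2 and LNP-Ctrl 2, TRAV14-1/TRAJ26 with TRBV1 and TRAV3-1/TRAJ30 with TRBV12-1, each had 3 against 92 paired ones. In LNP-Ctrl 2 TRAV3N-3/TRAJ22 (3 against 9) and TRAV7N-4/TRAJ6 (3 against 7) were level with it and had fewer TRA UMIs.

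Among alpha chains on many barcodes the alpha-only share was uneven. The 47 chains on 50 or more barcodes of a library held 93 alpha-only among 6341 barcodes (1.47%), and 18 of them had none. After TRAV9-1/TRAJ6, the highest shares were TRAV7-4/TRAJ33 in LNP-Ctrl 1 at 7.79% (6 of 77 barcodes) and the isoleucine form of TRAV7N-6/TRAJ17 in LNP-Ctrl 1 at 6.67% (8 of 120). TRAV16D-DV11/TRAJ39 in LNP-P20-mAb 1 followed at 4.30% (4 of 93) and TRAV12N-2/TRAJ4 in LNP-P20-mAb 2 at 3.52% (5 of 142). The intervals of these 4 began between 1.15% and 2.92%, and that of TRAV9-1/TRAJ6 at 17.4%. Of the 18 with none, those with the most barcodes are named. TRAV4-2/TRAJ35 in LNP-P20-mAb 3 had 0 of 335 (exact upper bound 1.10%) and TRAV7D-2/TRAJ31 in LNP-P20-mAb 1 had 0 of 194 (1.88%). TRAV7D-2/TRAJ4 and TRAV9-2/TRAJ48 in LNP-P20-mAb 2 each had 0 of 162 (2.25%), and TRAV15-1-DV6-1/TRAJ26 in LNP-P20-mAb 1 had 0 of 128 (2.84%). A chain with none can share its TRB receptor with a chain that has some. TRAV4-2/TRAJ35 came with the same TRBV3 receptor as TRAV7D-2/TRAJ17, which was alpha-only on 3 of 407 barcodes of LNP-P20-mAb 3. TRAV15-1-DV6-1/TRAJ26 came with the same TRBV12-1 receptor as TRAV12-2/TRAJ32, which was alpha-only on 1 of 179 barcodes of LNP-P20-mAb 1.

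The number of TRB molecules on the paired barcodes of these chains was also compared. Median TRB UMIs per paired barcode were 10.5, 12, 8.5, 16 and 10 for the 5 highest chains in the order given. Over the 18 chains with no alpha-only barcode they ran between 11 and 57 with a median of 27.5. Of the 18, 13 lay above all of the highest 5. Some of the 18 shared their TRB receptor with a chain that had alpha-only barcodes, so they do not stand for clones without any. Over the 98 chains of 20 or more barcodes, which share libraries and in LNP-P20-mAb 1 and 2 also clones, the alpha-only share and the median TRB UMIs had a Spearman rho of -0.287 and a Pearson r of -0.311. With the median TRA UMIs the values were 0.0675 and 0.227. By size of the chain over both classes, 1.64% of the barcodes with a chain seen once were alpha-only, 2.89% of those on chains of 2 to 4 barcodes, 3.22% on chains of 5 to 19 and 1.49% on chains of 20 or more. This order did not hold by library. In LNP-P20-mAb 1 and 2 the share was 2.84% and 3.31% on chains seen once, against 1.58% and 1.98% on chains of 5 to 19, while in the other 4 libraries it was lower on chains seen once. On chains of 20 or more it ran between 0% in LNP-Ctrl 3 and 5.07% in LNP-Ctrl 2.

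**Figure D4:**
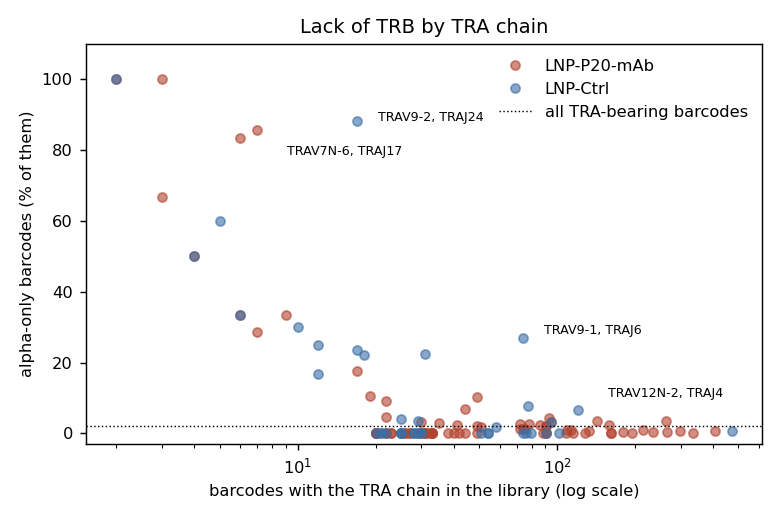
Share of alpha-only barcodes (vertical axis, percent) against the number of barcodes with the chain in its library (horizontal axis, log scale) for TRA chains on at least 2 alpha-only barcodes or at least 20 barcodes in all. The dotted line is the share over all TRA-bearing barcodes, 2.11%. TRAV9-2 with TRAJ24 at 88.2% of 17 barcodes and TRAV9-1 with TRAJ6 at 27.0% of 74 stand above chains of like size.

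LNP-P20-mAb 1 and 2 gave a repeated reading of the same clones. Of the 20 chains on 20 or more barcodes in both, 7 had no alpha-only barcode in either, 6 had some in both and 7 in 1 of them. TRAV12N-2/TRAJ4, paired with 1 TRBV13-1 receptor on all 253 and 137 paired barcodes, was alpha-only on 9 of 262 (3.44%) in LNP-P20-mAb 1 and 5 of 142 (3.52%) in LNP-P20-mAb 2. TRAV7D-2/TRAJ31 was alpha-only on 0 of 194 and 0 of 108. The shares were not alike for every clone: TRAV7-4/TRAJ33 was alpha-only on 5 of 49 barcodes in LNP-P20-mAb 1 and 0 of 26 in LNP-P20-mAb 2, and TRAV14-1/TRAJ26 on 1 of 133 and 3 of 95. Over all 20 chains the share was 1.24% (32 of 2578) in LNP-P20-mAb 1 and 1.05% (15 of 1423) in LNP-P20-mAb 2.

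Some alpha chains of alpha-only barcodes resembled each other across libraries. Whether this was more frequent than among paired chains was not tested. A shared loop was also seen among chains with no alpha-only barcode. The protein loop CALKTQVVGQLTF came with TRBV15 in LNP-Ctrl 1 (0 of 28 barcodes alpha-only), LNP-Ctrl 2 (0 of 25) and LNP-P20-mAb 3 (0 of 49). Among the 43 chains on at least 2 alpha-only barcodes, 5 pairs from different libraries had the same TRAJ segment and CDR3 length, other bases and at most 1 different residue. The TRAV7-4/TRAJ33 chain of LNP-P20-mAb 1 differed from that found in LNP-Ctrl 1 by 4 bases, all in the marked stretch, and both were paired with TRBV13-3. TRAV6D-6/TRAJ49 was present in LNP-P20-mAb 1 and LNP-Ctrl 3 with 1 different base and the same protein loop, paired with TRBV12-1 in both. A TRAJ26 chain with the same protein loop and 1 different base was paired with TRBV1 in both LNP-P20-mAb 2 and LNP-P20-mAb 3, with the V names TRAV14-1 and TRAV14N-1, which are copies of 1 segment. The 3 chains of TRAV7N-6 with TRAJ17 made the other 2 pairs. The alanine form was paired with TRBV12-1 on 1 barcode, the threonine form with TRBV12-1 on 2 and the isoleucine form with TRBV13-2 on 112. The TRB receptor of the alanine form was on 5 paired barcodes of LNP-P20-mAb 3, and this alpha chain on 1 paired barcode. Its pairing is therefore uncertain. The alpha-only shares of the alanine, threonine and isoleucine forms were 85.7%, 60.0% and 6.67%.

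The matching paired barcodes mostly named a single beta segment. Of the 128 matched chains, 105, on 188 alpha-only barcodes, were paired with 1 TRBV in their library, and 86 with 1 TRB receptor. A further 23, on 64 alpha-only barcodes, were paired with 2 or more TRBV, so a shared TRA need not mark 1 clone. Here the joint name TRBV12-2+TRBV13-2 was read as TRBV13-2, whose CDR1 was found in 99.9% of the 1665 chains with that name. Taking the TRBV of most paired barcodes of the chain, the 252 alpha-only barcodes were matched to TRBV13-1 (41), TRBV13-2 (38), TRBV12-1 (30), TRBV13-3 (18), TRBV5 (17), TRBV1 (16), TRBV3 (15), TRBV31 (12) and others. TRBV13-1, TRBV13-2 and TRBV13-3 form the Vβ8 family. A chain entered only if it had an alpha-only barcode, so a TRBV carried by small chains has a high alpha-only share by construction. With that limit, 16.1% of the barcodes matched to TRBV13-2 were alpha-only (interval 11.7% to 21.4%), 22.2% of those matched to TRBV31 (12.0% to 35.6%), 1.80% of those matched to TRBV1 and 1.72% of those matched to TRBV3, against 4.83% over all. Of the 38 alpha-only barcodes matched to TRBV13-2, 20 were those of TRAV9-1/TRAJ6 in LNP-Ctrl 2, and 7 of the 12 matched to TRBV31 carried TRAV7D-4/TRAJ31 in LNP-Ctrl 1.

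The same limit holds for the test across TRBV names, so its estimates are not read as differences between TRBV segments. On chains whose paired barcodes all carried 1 name, edgeR's quasi-likelihood test with the library as a block called 0 of 15 (0%), with 3 below an unadjusted p of 0.05 and a lowest adjusted p of 0.0935. DESeq2 called 0 as well. The highest estimates of the log2 change in alpha-only against paired barcodes were 2.49 ± 0.67 (SE) for the joint name, 2.19 ± 0.50 for TRBV10 and 2.17 ± 0.97 for TRBV23. The lowest were -0.90 ± 1.24 for TRBV15, -0.75 ± 0.56 for TRBV1 and -0.29 ± 1.11 for TRBV3. TRBV15 was at 0.55 without LNP-P20-mAb 1 and 0.35 in DESeq2, and TRBV3 at 0.12 without LNP-P20-mAb 1 and 0.57 without LNP-P20-mAb 3. These stand beside a median of 0.80 over the 15 names, which was -0.28 with TMM scaling. TRBV10 had 7 alpha-only and 39 paired barcodes, with alpha-only ones in 3 libraries. It and the joint name had an adjusted p below 0.05 without LNP-Ctrl 1 (edgeR adjusted p = 0.0455) and without LNP-Ctrl 3 (0.0490). So did TRBV10 (0.0325) and TRBV31 (0.0228) with joint names merged and the leading TRBV used, a setting added after seeing the data.

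No V or J segment of the alpha chains passed the test between alpha-only and paired barcodes. Counting each distinct chain once per library, 323 alpha-only and 12727 paired chains were compared. Of 127 TRAV and TRAJ segments with 20 or more chains, edgeR's quasi-likelihood test called 0 (0%), with 8 below an unadjusted p of 0.05 and a lowest adjusted p of 0.721, and DESeq2 called 0 with 19 below it. Across the 127 segments, which are not independent and count a chain found in both classes in each, mean use in both classes had a Spearman rho of 0.828 and a Pearson r of 0.860. Alpha-only chains used 69 of the 88 TRAV and 41 of the 43 TRAJ segments found in paired barcodes.

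The TRAV segment most used by distinct alpha-only chains was TRAV12-2, with 19 chains or 6.65% ± 2.89 in alpha-only against 3.92% ± 0.575 in paired barcodes (SD, n = 6 libraries), with a log2 change of 0.62 ± 0.39 (SE) that was -0.09 with TMM scaling. That scaling moved the median over all 127 segments to -0.70, against -0.01 without it. Next were TRAV7D-2 with 16 (5.03% ± 5.03 against 3.80% ± 1.53), TRAV6D-6 with 12 (3.72% ± 0.855 against 3.68% ± 0.349), TRAV12D-3 with 11 (3.02% against 2.87%) and TRAV3-3 with 10 (3.53% against 2.11%). TRAJ22 led the J segments with 21 chains (7.00% ± 4.46 against 6.29% ± 0.624), followed by TRAJ31 with 18, TRAJ26 with 15, TRAJ27 with 14 and TRAJ30, level with others, with 13. TRAJ22 was also the most used TRAJ in paired barcodes. The libraries of alpha-only barcodes spread widely, since each held only 28 to 94 distinct chains. TRAV7D-2, for example, ranged between 0% and 14.0% of them by library.

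The highest estimates of log2 change in alpha-only against paired chains were 1.43 ± 0.84 (SE) for TRAV3-1, 1.37 ± 0.94 for TRAV7N-4 and 1.23 ± 0.64 for TRAV7-3, none past the threshold. TRAV3-1 was at -0.18 in 1 of the fits that left out a library. At the low end, 17 of the tested segments had 0 alpha-only chains, which allows up to 0.929% of 323. TRAV21-DV12, TRAJ5 and TRAV7-6 were the lowest of these by estimate, and paired chains used them at 0.938% ± 0.355, 1.07% ± 0.400 and 0.985% ± 0.387. These levels are near that limit. With near-identical D and N copies of TRAV segments summed, TRAV7-6 was at 0.16 in place of -6.33. Its copy TRAV7N-6 had 7 alpha-only chains, so the 0 of TRAV7-6 depends on how copies are named. TRAV21-DV12 and TRAJ5 stayed at -6.52 and -6.51 in that setting. With barcodes counted in place of chains 1 segment was called, TRAV7N-4 (log2 change 3.00, edgeR adjusted p = 0.00637), whose 9 alpha-only barcodes included the 5 of TRAV7N-4/TRAJ44 in LNP-P20-mAb 3.

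**Figure D5:**
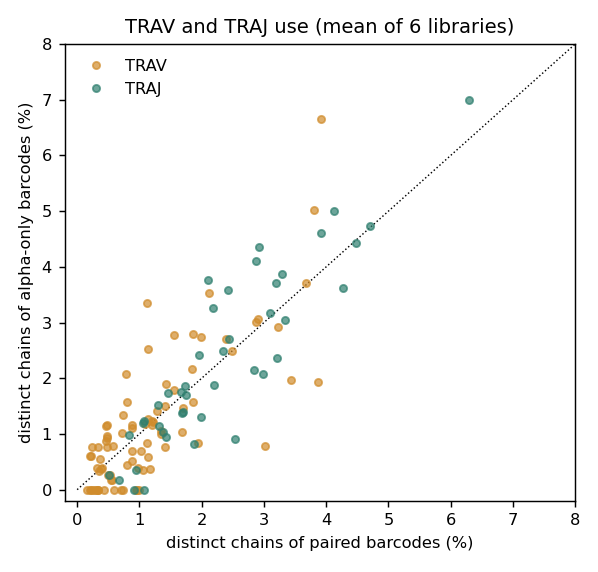
Use of each tested TRAV and TRAJ segment among distinct chains of alpha-only barcodes (vertical axis, percent) against paired barcodes (horizontal axis, percent), as means of 6 libraries, with a dotted line of equal use. Points follow the line, TRAV12-2 lies above it at 6.65% against 3.92%, and 17 segments lie at 0 on the vertical axis.

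By position in the locus, the lists of segments had 0 members called in each direction. TRAV segments nearest the J cluster (TRAV17, TRAV18, TRAV19, TRAV21-DV12) made up 2.03% ± 3.67 of alpha-only and 2.56% ± 0.746 of paired chains (SD, n = 6). The farthest TRAV segments (TRAV1, TRAV2, TRAV3-1, TRAV4-2) made up 1.44% ± 1.75 and 1.76% ± 0.253. J segments nearest the V cluster, which the first rearrangements can use, made up 8.49% ± 4.18 of alpha-only and 10.0% ± 1.08 of paired chains. J segments farthest from it (TRAJ2 to TRAJ7 and TRAJ9), open to later rearrangements, made up 7.33% ± 4.66 and 10.6% ± 1.17. Alpha V segments that delta chains can also use made up 7.04% ± 3.29 and 7.35% ± 1.19.

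Between treatments no segment of alpha-only chains passed the test. edgeR's quasi-likelihood test called 0 of 20 segments with 10 or more chains (0%), with 0 below an unadjusted p of 0.05, and DESeq2 called 0. The highest log2 differences of LNP-P20-mAb over LNP-Ctrl were 1.46 ± 0.90 (SE) for TRAJ48, 1.43 ± 0.73 for TRAV7D-2 and 1.25 ± 1.01 for TRAJ21. The lowest were -2.28 ± 1.16 for TRAJ34, -1.48 ± 0.92 for TRAJ31 and -0.92 ± 0.84 for TRAJ30. With 1 library left out TRAJ34 reached -4.49 (without LNP-P20-mAb 3). TRAJ31 was at -2.33 without LNP-P20-mAb 1 and -0.75 without LNP-P20-mAb 3, and TRAJ30 at -1.77 without LNP-P20-mAb 1 and -0.57 without LNP-P20-mAb 2. Each segment rested on 10 to 21 chains over 6 libraries.

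Alpha CDR3 length did not differ between the classes beyond the spread between libraries. Distinct chains had a median of 42 bases in each, ranging between 30 and 51 in alpha-only and between 15 and 120 in paired barcodes. Mean length was 42.0, 42.2 and 40.4 bases in alpha-only chains of LNP-P20-mAb 1, 2 and 3, against 41.2, 41.2 and 41.0 in paired ones. In LNP-Ctrl 1, 2 and 3 it was 41.9, 40.5 and 40.6 in alpha-only chains, against 41.1, 40.9 and 41.0 in paired ones. The difference was positive in 3 libraries and negative in 3, with a mean of 0.204 bases ± 0.746 (SD, n = 6; two-sided exact sign-flip permutation p = 0.531).

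Chains of unconventional T cells were rare. Invariant natural killer T cells, which recognise lipids, use TRAV11 with TRAJ18, and 2 alpha-only barcodes, 1 each of LNP-Ctrl 1 and LNP-Ctrl 2, had such a chain, against 62 paired barcodes. The TRAV1 and TRAJ33 chain of mucosal-associated invariant T cells, which recognise microbial metabolites, was on 0 alpha-only barcodes, which allows up to 0.665%, against 19 paired barcodes. Both kinds together made up 0.336% ± 0.533 of alpha-only and 0.362% ± 0.252 of paired barcodes (SD, n = 6 libraries; two-sided exact sign-flip permutation p = 0.906). The sign of this difference, -0.0263 points, changed without LNP-P20-mAb 2, LNP-P20-mAb 3 or LNP-Ctrl 3, reaching at most 0.0592 points. Of the 451 alpha-only barcodes, 450 had the constant segment TRAC named and 1 had none. All 48792 deposited chains, of any class of barcode, were TRA or TRB. Whether a barcode also held gamma, delta or immunoglobulin chains can therefore not be read from these data. Markers outside the receptor genes were not analysed here.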

How the data were processed

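The 6 TCR libraries were grouped by their titles. The deposited files list 1 assembled chain per line with counts of reads and UMIs, and the authors' counts were used as deposited. Cell Ranger 8.0.1 is the tool in the submitters' processing notes, which list several genome builds and no use of them. Coordinates are left out for that reason. All 48792 deposited chains bore the flags for a called cell, high confidence, full length and productivity. That calling was the authors', and a chain with few UMIs that it dropped leaves no trace here, which can turn a paired barcode into an alpha-only one. Chains listed again on a barcode (11) were counted once. No doublet caller was run, since only receptor chains were analysed, and the labels do not say whether doublets were removed before deposit. Barcodes that held over 1 TRB or over 2 TRA chains can be doublets. They were kept, and an alternative removed them.

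A TRA chain was identified by V, J and CDR3 bases. Capitals in sequences mark bases outside the runs that 50% of chains of the same V or J share. Single values were compared by exact permutation (20 assignments) or sign-flip (64 flips) tests, with the library as replicate and Benjamini-Hochberg adjustment per family of 4 (between treatments, 1 of the 4 was added after the values were seen). Segment counts were tested with edgeR 4.0.16 in R 4.3.3 (quasi-likelihood, no further scaling, adjusted p threshold 0.05), and DESeq2 1.42.0 was an alternative. Chains counted were distinct ones, and barcodes for TRBV. A minimum of 20 counts per segment applied (10 between treatments). SE is the size of the log2 change divided by the square root of F. Reads of near-identical D and N copies of TRAV segments could be split between names. On simulated 4-fold changes the segment tests called 41.4% for TRAV and TRAJ against paired barcodes, 23.8% between treatments and 38.7% for TRBV. For 8-fold changes these were 63.1%, 52.6% and 72.4%, and with no change 0.343%, 0.312% and 0.417%. A result of 0 calls therefore does not exclude changes of this size. The draws used 1 fixed spread between libraries and the same segment shares in each, whereas the TRBV counts were barcodes of clones that differ by library. The simulated rates may thus not hold for the tests on these data, least of all for TRBV. Other steps ran in Python 3.11.15 (scipy 1.17.1, pandas 2.3.3, numpy 2.4.6; figures in matplotlib 3.10.9). Intervals are 95% exact Clopper-Pearson, and beside a count of 0 stands the share of 3 counts. Neither covers more than counting error.

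The members, lists and comparisons were chosen with earlier results of these data known. Segments named are those past the threshold, or else the 3 highest and 3 lowest estimates, the 5 most used TRAV and TRAJ, and the list members. Chains named are the 2 matched chains on most alpha-only barcodes per library, the 3 unmatched on most, and the 5 highest and 5 lowest shares among chains of 50 or more barcodes, with ties taken by more TRA UMIs or, among large chains, more barcodes. Other chains named (TRAV7-4/TRAJ33 and TRAV7D-4/TRAJ31 in LNP-Ctrl 1 among the sequences shown, the chains level in LNP-Ctrl 2, the threonine form of TRAV7N-6/TRAJ17, the like pairs and the chains shared by LNP-P20-mAb 1 and 2) were chosen after their values were seen. Alternatives left out each library, counted LNP-P20-mAb 1 and 2 as 1 sample, required 3 TRA UMIs, removed barcodes with such surplus chains, changed chain identity, scaling, tool and minimum, and used a replicate block.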

Additional observations from a re-analysis of the deposited data

How the results depend on the processing

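Segment use rested on 28 to 94 distinct alpha-only chains per library, which limits its precision, and in exact permutation tests 3 libraries against 3 cannot go below p = 0.1. In 120 comparisons of the main results with their alternatives, direction and side of the threshold were kept as far as these could change. For segment tests only the number of calls was compared, and between treatments the exact permutation p cannot pass the threshold of 0.05. A further 7 comparisons changed direction and 4 passed the threshold. The other 7 concern second TRA chains, where the test is void. That difference was -14.1 to -11.2 points with a library left out and -14.0 with LNP-P20-mAb 1 and 2 as 1 sample, where an exact permutation over 32 flips allows no p below 0.0625. The difference in shared TRA between alpha-only and paired barcodes ranged between -0.298 and 6.46 points on leaving out a library, and it was -0.374 without the 2 chains on over 10 alpha-only barcodes (p = 0.906, exact sign-flip permutation). The cause was not tested. The difference in invariant chains, -0.0263 points over all libraries, ranged between -0.191 and 0.0592 with a library left out. It was 0.0542 with 3 or more TRA UMIs and 0.0424 without the 2 chains on over 10 alpha-only barcodes. The difference between treatments in shared TRA was -26.3 to -14.5 points with a library left out (exact permutation p = 0.1 to 0.2). In most of the other settings given above the treatments overlapped. In edgeR, TRAV and TRAJ use had 1 call with barcodes counted, and the TRBV of matching barcodes had 0 to 2 calls with a library left out and 2 with the leading TRBV and merged joint names, on chains chosen for having an alpha-only barcode. With TMM scaling the median log2 change of TRAV and TRAJ use against paired barcodes was -0.70 in place of -0.01, and between treatments -0.50 in place of 0.12, with 0 calls in each. Same-numbered libraries did not deviate together (r = 0.0199, -0.176 and -0.107 over 122 segments), so the numbers were taken as names. With the replicate block the exact permutation p was 0.5 for the alpha-only share, 1 for TRA UMIs and 0.25 for the shared TRA, and edgeR called 0 segments.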
